A study of Mus musculus with 4 samples.

Results

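The genes examined here encode the proteins of the mitochondrial ribosome. They were chosen by name, as every gene whose symbol starts with Mrpl or Mrps followed by a digit, and 66 of the 9779 genes kept from the deposited tables met this rule. Of the 66 genes, 42 are named for the large subunit (Mrpl) and 24 for the small subunit (Mrps). No member had a failed estimate, and all 66 reached an FPKM of at least 1 in all 4 libraries, so none was lost to a filter on low values. FPKM counts the fragments of a gene relative to the length of its exons and to the mapped fragments of the library. RefSeq lists 78 protein-coding mouse genes under these names. The 12 genes not analysed here are *Mrpl20*, *Mrpl21*, *Mrpl27*, *Mrpl36*, *Mrpl53*, *Mrpl55*, *Mrpl58*, *Mrps2*, *Mrps10*, *Mrps17*, *Mrps21* and *Mrps34*, although the tables hold *Mrpl58* under its older name *Ict1*, which the naming rule does not take. The cells were female LF2 mouse embryonic stem cells (ESCs) of strain 129/J, grown on feeder cells and passaged without feeders before treatment. All 4 conditions lasted 24 hr: PBS with DMSO (the vehicles), PBS with 10 μM GSK-J4, 50 μg/ml L-ascorbic acid (AA) with DMSO, and AA with GSK-J4. GSK-J4 enters cells and inhibits histone demethylases of the JmjC family, and AA is a cofactor that supports the activity of these enzymes. Each condition was sequenced as 1 library of total RNA, so no difference below has a replicate error or a p-value, and every ratio compares a pair of libraries.

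Mitochondria carry their own ribosomes, which translate the few messenger RNAs of the mitochondrial genome into hydrophobic subunits of the oxidative phosphorylation complexes. The ribosomal RNAs come from the mitochondrial genome, while all mitoribosomal proteins are encoded in the nucleus, made in the cytosol, imported and assembled with the RNA inside the organelle. Many of these proteins descend from those of a bacterial ribosome, and others were added during the evolution of mitochondria. ESCs rely strongly on glycolysis, yet they keep active mitochondria, and nearly every protein of the mitoribosome is needed as a single copy in the same particle.

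The line was checked against genes that define ESCs. *Pou5f1* (Oct4) had an FPKM of 867, 510.2, 799.9 and 479.7 in the order PBS+DMSO, PBS+GSK-J4, AA+DMSO and AA+GSK-J4, an order used for every list of values below. *Sox2* had an FPKM of 223, 155, 214 and 163. The fibroblast collagen genes *Col1a1*, at 2.83, 4.28, 3.24 and 4.19, and *Col1a2*, at 2.46, 2.76, 2.52 and 2.11, were low but not at 0 in all libraries, and the part of remaining feeder cells in the values was not tested. Depth is not given with the values. Low FPKM values move in steps worth 1 read, and the size of these steps put AA+DMSO at 0.795 and PBS+GSK-J4 at 0.641 of the depth of PBS+DMSO, and AA+GSK-J4 at 0.659 of AA+DMSO. These depths are tentative, because the next best solutions scored only 5.24%, 4.53% and 19.1% lower. In the best solutions both GSK-J4 libraries were the shallower of their pair, but the next best solution for AA+GSK-J4, at 1.32 times the depth of AA+DMSO, makes it the deeper library, and the part of depth in the ratios was not tested.

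The promoters of the genes that the results turn on are shown first. RefSeq (GRCm38.p6) gives a promoter of 250 bases before to 50 bases after the transcription start for 58 of the 66 genes. The 150 bases before the start are printed 5′ to 3′ on the strand of the gene, in lower case, with capitals where a searched motif was found on either strand. *Mrps12*, *Mrpl12* and *Mrpl18* are shown because they had the lowest GSK-J4 ratios, *Mrps6* because it had the highest, and *Mrpl22* and *Mrpl32* because they carry the elements best known from genes of this class.
Mrps12 (chr7:28741822-28741971, minus strand): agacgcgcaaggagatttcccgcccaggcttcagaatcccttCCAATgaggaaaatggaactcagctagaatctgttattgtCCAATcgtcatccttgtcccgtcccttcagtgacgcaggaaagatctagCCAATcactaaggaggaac
Mrpl12 (chr11:120484487-120484636, plus strand): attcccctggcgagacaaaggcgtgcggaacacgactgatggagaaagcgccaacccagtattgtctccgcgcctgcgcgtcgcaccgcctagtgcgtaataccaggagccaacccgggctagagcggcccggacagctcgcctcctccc
Mrpl18 (chr17:12916092-12916241, minus strand): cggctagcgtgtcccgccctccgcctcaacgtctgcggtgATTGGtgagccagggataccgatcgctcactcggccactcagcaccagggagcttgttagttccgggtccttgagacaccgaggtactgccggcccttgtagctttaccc
Mrps6 (chr16:92058186-92058335, plus strand): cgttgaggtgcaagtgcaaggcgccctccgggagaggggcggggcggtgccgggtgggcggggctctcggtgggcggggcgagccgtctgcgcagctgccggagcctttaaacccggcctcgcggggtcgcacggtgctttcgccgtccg
Mrpl22 (chr11:58171514-58171663, plus strand): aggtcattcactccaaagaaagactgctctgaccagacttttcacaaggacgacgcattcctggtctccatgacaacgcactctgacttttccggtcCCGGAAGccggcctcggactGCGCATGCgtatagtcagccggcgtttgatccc
Mrpl32 (chr13:14613038-14613187, minus strand): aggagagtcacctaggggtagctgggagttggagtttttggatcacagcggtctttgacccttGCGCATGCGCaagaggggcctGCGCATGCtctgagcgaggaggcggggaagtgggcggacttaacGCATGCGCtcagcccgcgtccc
The capitals in *Mrps12* are 3 CCAAT boxes, whose first bases lie at -108, -68 and -19 from the start, and the capitals in *Mrpl18* are a CCAAT box at -110 on the other strand. *Mrpl22* holds an ETS element, the letters bound by GABPA (also called NRF2 in the mitochondrial literature), at -53 and an element of NRF1 (nuclear respiratory factor) at -33. The capitals in *Mrpl32* are matches to the NRF1 element at -87, -85, -66 and -22, of which the first pair overlap because the element is nearly the same on both strands. None of the searched letters was present in the windows shown for *Mrpl12* and *Mrps6*, which says nothing about the factors themselves.

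Over the whole promoters, the ETS letters CCGGAAG were found in 21 of the 58 genes (36.2%). They were found in 21.5% of the 7192 genes of the tables that have a promoter and an FPKM of at least 1 in any library, and in 8.86% of 32851 single mouse promoters. A gene was counted when any of its promoters had a match, so the share of single promoters is not the same measure. The YY1 letters AAGATGGC were found in 11 genes (19.0%, compared with 5.56% and 2.75%), and the NRF1 letters GCGCATGC in 8 genes (13.8%, compared with 6.97% and 2.71%). Letters of other factors were not more common in these promoters than among the genes of the tables. The E-box CACGTG was found in 3 genes (5.17%, compared with 12.6% of the genes of the tables), CCAAT in 22 genes (37.9%, compared with 43.2%), and the C/EBP-ATF letters TGATGNAA in 0 of 58 (compared with 2.45%). Both strands were searched for every motif, and a match is a description of letters, not a binding site. The YY1 letters lie mostly inside the transcribed part, since only 3 of their 11 matches end before the start.

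In PBS+DMSO the 66 genes had a median FPKM of 35.1, with quartiles of 24.8 and 50.5, and their median rank was at percentile 81.8 of all genes. The range ran from 3.83 for *Mrpl57* to 129.9 for *Mrpl42*, so genes whose products meet in one particle differed 33.9-fold in FPKM, although the upper quartile was only 2.03 times the lower. The median over the 66 genes was 24.8 with GSK-J4 in PBS, and it was 35.8 with DMSO and 23.9 with GSK-J4 in AA. The DMSO libraries were thus close to each other, and both GSK-J4 libraries were lower. The 66 genes summed to an FPKM of 2708 with DMSO and 1824 with GSK-J4 in PBS, and of 2686 and 1765 in AA. These sums made up 0.751%, 0.662%, 0.785% and 0.651% of the FPKM of all genes kept. With GSK-J4 the sum over the 66 genes was 0.674 times its DMSO value in PBS and 0.657 times in AA, while the sum over all genes was 0.764 and 0.792 times. The order of the genes was largely kept, with a Spearman rho between GSK-J4 and DMSO of 0.945 in PBS and 0.959 in AA over the 66 genes, given as a description.

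**Figure D1:**
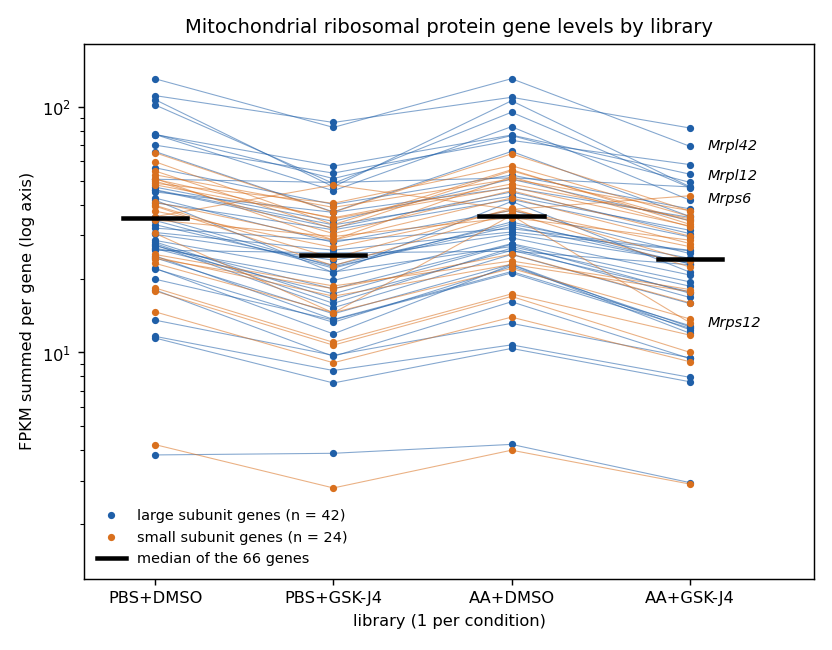
FPKM of each of the 66 mitochondrial ribosomal protein genes (log axis) in the 4 libraries, 1 per condition, with a line per gene, blue for the large and orange for the small subunit, and a black bar at the median. The medians are 35.1, 24.8, 35.8 and 23.9 FPKM, and *Mrps6* is the gene whose lines go up from DMSO to GSK-J4 in both pairs.

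In cells without AA, nearly all mitochondrial ribosomal protein genes had lower values with GSK-J4 than with DMSO. Ratios are given as log2((FPKM with GSK-J4 + 1)/(FPKM with DMSO + 1)), which slightly understates differences of weakly expressed genes, and a gene needed an FPKM of 1 or more in one library of the pair. Of the 66 genes, 64 lay below 0, and their median log2 ratio was -0.54, compared with -0.17 over the 9196 genes with a value. A value at least 1.5-fold lower was found for 29 of the 66 genes, compared with 19.3% of all genes. A value at least 1.5-fold higher was found for 0, compared with 11.6% of all genes. Of 3863 genes with a mean FPKM from 10 to 100, 1054 were at least 1.5-fold lower and 219 higher. At 2-fold, 3 of the 66 genes were lower (*Mrpl12*, *Mrpl18* and *Mrps12*), compared with 3.5% of all genes, and 0 were higher, compared with 4.96%. Most members thus had moderately lower values, and the share past 2-fold was close to the background. In bulk RNA, fewer cells that express a gene and less of its RNA per cell cannot be told apart.

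In cells with AA, the same comparison was made in a pair of libraries that shares none with the first. Of the 66 genes, 65 (98.5%) lay below 0, compared with 62.2% of the 9139 genes with a value. Among genes with a mean FPKM from 10 to 100, 78.5% lay below 0. The median log2 ratio of the 66 genes was -0.55, compared with -0.16 over all genes. Again 29 genes were at least 1.5-fold lower, compared with 17.8% of all genes, and 0 were at least 1.5-fold higher, compared with 10.1% of all genes. Of 3863 genes with a mean FPKM from 10 to 100, 901 were at least 1.5-fold lower and 190 higher. At 2-fold, the lower genes were again *Mrpl12*, *Mrpl18* and *Mrps12* (background 3.38%), and 0 were higher (background 4.13%). A value at least 1.5-fold lower in both comparisons was found for 24 of the 66 genes. Over all genes, 13.7% were at least 1.5-fold lower in both. Across the 66 genes, the ratios without and with AA had a Pearson r of 0.862 and a Spearman rho of 0.836, close to the 0.842 and 0.838 over 8972 genes, and r was 0.836 without *Mrps6*. These are descriptions across genes, which are not independent replicates.

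**Figure D2:**
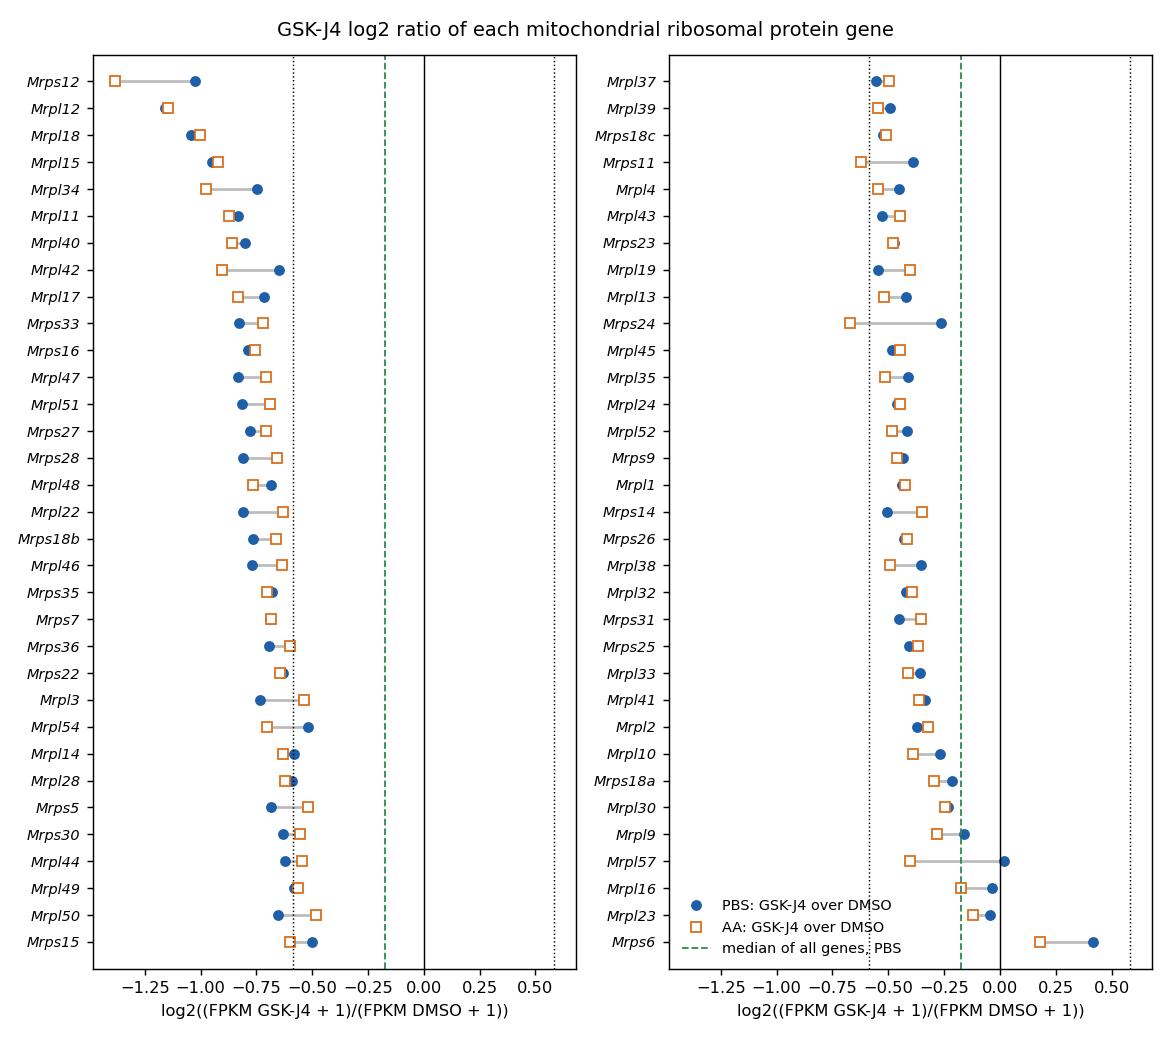
log2 ratio of GSK-J4 over DMSO for each of the 66 genes, ordered by the mean of both comparisons, with filled circles for PBS, open squares for AA, dotted lines at 1.5-fold and a green dashed line at the median of all genes in PBS (-0.17). In PBS 64 circles and in AA 65 squares lie left of 0, compared with 63.0% and 62.2% of all genes. *Mrps6* is the gene with both symbols right of 0.

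The shift depends on how the libraries are set against each other, and part of it is shared with other genes of similar expression. Division of the libraries by their upper quartiles moved the median of all genes to 0.07 without AA and 0.07 with AA, and scaling to equal totals moved it to 0.16 and 0.14. The share of all genes at least 1.5-fold lower or higher moved with it, from 19.3% lower and 11.6% higher to 4.68% lower and 21.3% higher without AA under equal totals, and from 17.8% and 10.1% to 5.51% and 19.4% with AA. Under that scaling 53 members without AA and 59 with AA were below 0, and 3 and 5 of the 66 were at least 1.5-fold lower, so that the share past 1.5-fold was close to that of all genes. Relative to the median of all genes, the median of the 66 genes was -0.36 without AA and -0.39 with AA, and over all settings it lay between -0.39 and -0.19 and between -0.41 and -0.23. Genes with a mean FPKM between 10 and 100 had median log2 ratios of -0.35 and -0.31. A running median over the genes nearest in expression was therefore subtracted from each ratio. The 66 genes then had medians of -0.19 without AA and -0.23 with AA, and 48 (72.7%) and 56 (84.8%) of them lay below 0. Within the group, the 22 genes with the lowest FPKM had medians of -0.63 and -0.63. The middle 22 had medians of -0.50 and -0.49, and the 22 with the highest FPKM of -0.50 and -0.58. The medians thus did not fall steadily with level. Single members differed, since *Mrpl12*, *Mrpl18* and *Mrpl42* were among both the 4 highest in level and the 8 lowest in ratio. Of the 66 genes, 47 were below 0 in both comparisons under all 11 alternative settings, *Mrps6* was above 0 under all of them, and 18 reached 0 or above in a comparison under at least 1. The 18 genes are *Mrpl2*, *Mrpl4*, *Mrpl9*, *Mrpl10*, *Mrpl13*, *Mrpl16*, *Mrpl23*, *Mrpl24*, *Mrpl30*, *Mrpl33*, *Mrpl38*, *Mrpl41*, *Mrpl45*, *Mrpl57*, *Mrps9*, *Mrps18a*, *Mrps24* and *Mrps26*.

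**Figure D3:**
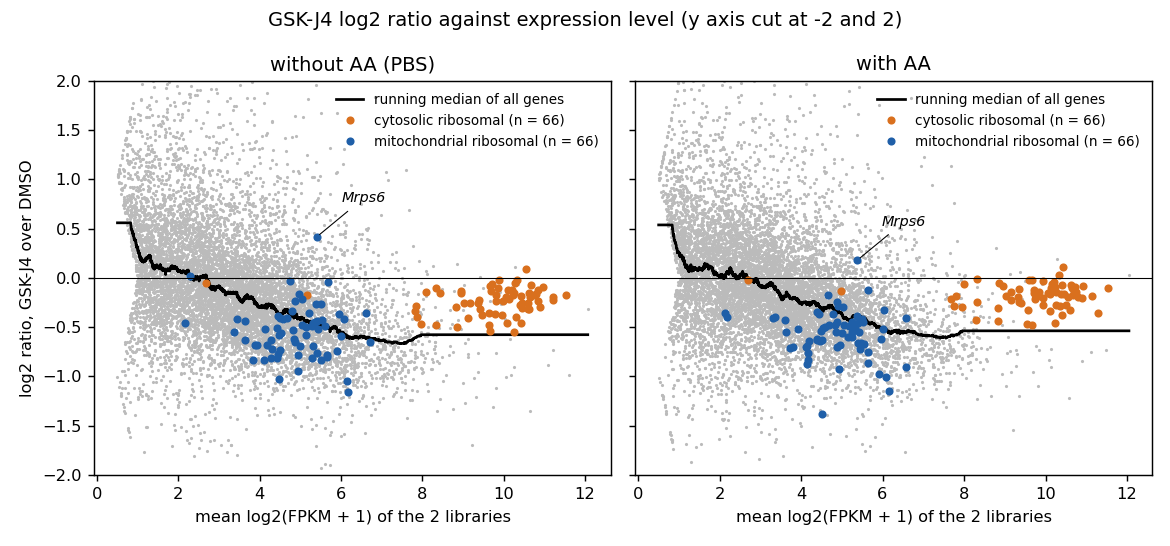
log2 ratio of GSK-J4 over DMSO against the mean log2(FPKM + 1) of the same pair of libraries, without AA (left) and with AA (right), for all genes (grey), cytosolic ribosomal protein genes (orange) and mitochondrial ribosomal protein genes (blue), with the running median as a black line. Most blue points lie below the line, with a median distance of -0.19 and -0.23, and most orange points lie above it.

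The members are described in the order of their place in the ribosome, and those outside the rule for named genes were added for their role after their values were seen. The stalk of the large subunit recruits the translation factors. *Mrpl12*, the mitochondrial form of bacterial L7/L12 and the flexible arm of the stalk, had an FPKM of 107 with DMSO and 47.2 with GSK-J4 in PBS, and 106 and 47.3 in AA. Both DMSO values were more than 2-fold above both GSK-J4 values, and the log2 ratios were -1.16 without AA and -1.14 with AA, at percentile 1.77 and 1.74 of all genes. *Mrpl11*, at the base of the stalk, had an FPKM of 21.99, 11.9, 22.8 and 11.99, with log2 ratios of -0.83 and -0.87. *Mrpl10*, the protein that holds *Mrpl12* to the ribosome, differed far less. Its FPKM was 45.001, 37.2, 46.8 and 35.5, and its log2 ratios of -0.27 and -0.39 turned to 0.18 and 0.02 against genes of similar expression. The proteins of the same structure were thus encoded by genes at opposite ends of the group.

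Around the peptidyl transferase centre, where peptide bonds form, *Mrpl3* had an FPKM of 28.2, 16.5, 26.02 and 17.7 and log2 ratios of -0.73 and -0.53. *Mrpl2*, one of the most conserved ribosomal proteins, had an FPKM of 69.8, 53.7, 72.9 and 58.2, with log2 ratios of -0.37 and -0.32 that turned positive against genes of similar expression, at 0.16 and 0.18. *Mrpl16*, which lies close to the incoming transfer RNA, was almost level, at 26.1, 25.4, 25.8 and 22.8 FPKM and log2 ratios of -0.03 and -0.17. The sign of *Mrpl16* also depended on the setting, with a range of -0.04 to 0.34 without AA and -0.18 to 0.15 with AA.

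The tunnel through which the growing protein leaves the ribosome is lined or surrounded by the products of *Mrpl22*, *Mrpl23*, *Mrpl24* and *Mrpl47*. *Mrpl22*, whose promoter with an ETS and an NRF1 element is printed above, had an FPKM of 27.4, 15.2, 25.1 and 15.8 and log2 ratios of -0.81 and -0.63. *Mrpl47*, the counterpart of bacterial L29, had an FPKM of 17.95, 9.64, 16.1 and 9.45 and log2 ratios of -0.83 and -0.71, but 13.4% of its exon bases overlap *Actl6a* on the opposite strand, and how strand was treated in counting is not given in the sources used here. *Mrpl24* was intermediate, at 45.9, 33.1, 43.2 and 31.4 FPKM and -0.46 and -0.45, and 38.1% of its exon bases overlap *Rrnad1* on the opposite strand. *Mrpl23* was at 50.7, 49.2, 51.4 and 47.2 FPKM, and its log2 ratios of -0.04 and -0.12 were the closest to 0 over both comparisons among the members below 0 in both. *Mrpl45*, which ties the ribosome to the inner membrane near the tunnel exit, had an FPKM of 56.4, 40.1, 52.7 and 38.4 and log2 ratios of -0.48 and -0.45.

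The central protuberance of the large subunit carries many proteins without a bacterial counterpart. *Mrpl18*, whose bacterial homolog binds the ribosomal RNA of this region, had an FPKM of 102 with DMSO and 48.7 with GSK-J4 in PBS, and 94.97 and 46.9 in AA. The GSK-J4 values were less than 0.5 times the DMSO values in both pairs, and the log2 ratios were -1.04 and -1.003. *Mrpl40* had an FPKM of 65.7, 37.3, 65.8 and 35.8 and log2 ratios of -0.80 and -0.86. *Mrpl46* was at 27.8, 15.8, 26.6 and 16.8 FPKM with -0.77 and -0.64, and *Mrpl48* at 21.9, 13.3, 22.4 and 12.7 FPKM with -0.68 and -0.77. *Mrpl38* was the least different of these genes, at 40.7, 31.6, 41.9 and 29.5 FPKM and log2 ratios of -0.35 and -0.49.

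Of the other large subunit genes, *Mrpl15* and *Mrpl34*, both with bacterial counterparts, were among the 8 lowest members. *Mrpl15* had an FPKM of 41.7, 21.1, 41.2 and 21.2 and log2 ratios of -0.95 and -0.92, so the pairs gave nearly the same value. *Mrpl34* had an FPKM of 77.1, 45.5, 82.9 and 41.7 and log2 ratios of -0.75 and -0.98. *Mrpl42*, a mitochondria-specific protein and the member with the highest mean FPKM, was at 129.9, 82.4, 130.05 and 69.1 FPKM with -0.65 and -0.90. *Mrpl33*, the next in level, differed less, at 111, 86.3, 109 and 81.96 FPKM and -0.36 and -0.41, and both of its ratios turned positive against genes of similar expression (0.25 and 0.15). *Mrpl9* and *Mrpl30*, also of bacterial type, lay near the background median. *Mrpl9* had an FPKM of 32.1, 28.5, 31.9 and 26.1 and log2 ratios of -0.16 and -0.28, and *Mrpl30* one of 30.8, 26.1, 30.9 and 25.9 with -0.23 and -0.25. *Mrpl32*, whose product is trimmed by a protease of the inner membrane before assembly and whose promoter has the NRF1 matches printed above, had an FPKM of 11.6, 8.44, 10.7 and 7.93 and log2 ratios of -0.42 and -0.40. Apart from *Mrpl57*, the remaining large subunit genes lay between the ratios of *Mrpl12* and *Mrpl16* without AA and between those of *Mrpl12* and *Mrpl23* with AA.

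In the small subunit, *Mrps12* stood apart from the other members. Its product is the counterpart of bacterial S12, the protein at the decoding centre that checks the match of codon and anticodon. Its FPKM was 30.5 with DMSO and 14.5 with GSK-J4 in PBS, and 36.1 and 13.2 in AA. Both DMSO values were above both GSK-J4 values, with log2 ratios of -1.02 and -1.38, at percentile 3.15 and 0.667 of all genes. The ratio with AA was the lowest of any member, and over all settings it ranged from -1.44 to -1.06. *Mrps24*, the counterpart of S3 at the entry of the messenger RNA, had an FPKM of 48.8, 40.5, 57.5 and 35.8 and log2 ratios of -0.26 and -0.67. *Mrps5*, at the same entry, had an FPKM of 18.3, 10.9997, 17.3 and 11.8 and log2 ratios of -0.69 and -0.52. *Mrps7* and *Mrps9*, both of the head of the subunit, were at 39.7, 24.2, 38.6 and 23.7 FPKM with -0.69 and -0.68 and at 48.1, 35.3, 48.5 and 34.98 FPKM with -0.43 and -0.46. *Mrps16*, of the body, was at 64.9, 37.2, 64.3 and 37.7 FPKM with -0.79 and -0.76. Among the mitochondria-specific genes, *Mrps27*, a pentatricopeptide repeat protein, had an FPKM of 39.4, 22.5, 36.98 and 22.3 and log2 ratios of -0.78 and -0.71, and *Mrps33* one of 59.7, 33.1, 55.4 and 33.3 with -0.83 and -0.72. *Mrps36* was at 49.8, 30.5, 45.5 and 29.8 FPKM with -0.69 and -0.60, although its product is now assigned to the alpha-ketoglutarate dehydrogenase complex and not to the ribosome. The FPKM of *Mrps36* is a sum over 2 coding sequence groups. Both were lower with GSK-J4 in PBS. In AA they moved in opposite directions, from 40.6 to 20.4 and from 4.95 to 9.34. The highest group alone gave a log2 ratio of -0.96 with AA.

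*Mrps6* was the member that did not share the direction of the group. It is the counterpart of bacterial S6, a protein of the platform of the small subunit. Its FPKM was 35.7 with DMSO and 48.01 with GSK-J4 in PBS, and 38.2 and 43.4 in AA, so the GSK-J4 library had the higher value in both pairs. The log2 ratios were 0.42 without AA and 0.18 with AA, at percentile 83.5 and 73.8 of all genes, and neither reached 1.5-fold. Over all settings the ratio ranged from 0.38 to 0.87 and from 0.16 to 0.59. In GENCODE M21, 18.8% of the exon bases of *Mrps6* overlap *Slc5a3*, which encodes an inositol transporter, and 36.1% overlap the gene model *Gm49711*, both on the same strand, so reads in these bases cannot be told apart by strand. Neither was analysed here, and the part of this overlap in the value was not tested.

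The 3 paralogs of bacterial S18 show how far related members can differ. *Mrps18a*, whose product sits in the large subunit in spite of its name, had an FPKM of 34.6, 29.7, 35.4 and 28.6 and log2 ratios of -0.22 and -0.30. *Mrps18b* had an FPKM of 54.7, 31.8, 54.9 and 34.3 and log2 ratios of -0.76 and -0.66. *Mrps18c* lay between them, at 50.7, 35.02, 47.04 and 32.7 FPKM and -0.52 and -0.51. Without replicates these differences between paralogs have no error, but their order was the same in both comparisons.

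Members grouped by subunit or by descent had medians within 0.1 of each other before genes of similar expression were set beside them. The 42 large subunit genes had medians of -0.54 without AA and -0.53 with AA, with 17 and 16 of them at least 1.5-fold lower (background 19.3% and 17.8%). The 24 small subunit genes had medians of -0.58 and -0.60, with 12 and 13 at least 1.5-fold lower. The 38 genes with a bacterial counterpart had medians of -0.50 and -0.53, and the 28 mitochondria-specific genes of -0.60 and -0.55. Against genes of similar expression, the medians without and with AA were -0.16 and -0.21 for the large and -0.25 and -0.27 for the small subunit, and -0.13 and -0.23 for the bacterial-type and -0.23 and -0.24 for the mitochondria-specific genes, so the groups were farther apart in proportion without AA. These differences were not tested. The bacterial-type genes were more spread out, with an SD of 0.31 and 0.29 across genes compared with 0.19 and 0.15, and they held both ends of the group. The grouping is by name and by list, and products such as those of *Mrps18a* and *Mrps30* are placed in the large subunit by structures.

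The ratio with AA was within 0.25 of the ratio without AA for 62 of the 66 genes, and no share of all genes stands beside this count. The difference (with AA minus without AA) had a median of 0.0028 and an SD of 0.14 across genes, compared with an SD of 0.33 over all genes. The SD over genes of similar expression is not given for this difference. For the ratios of AA over PBS, in DMSO and with GSK-J4, the SD was 0.27 and 0.26 over all genes. It was 0.15 and 0.16 over genes with a mean FPKM from 10 to 100, and 0.086 and 0.091 over the 66 genes. The lowest differences were those of *Mrpl57* (-0.42), *Mrps24* (-0.41) and *Mrps12* (-0.36), whose ratios were lower with AA. *Mrpl57*, a small mitochondria-specific protein, had an FPKM of 3.83, 3.89, 4.23 and 2.96, so its value with both agents was the lowest of its 4 while the other 3 were close to each other. It was, with *Mrps31* (at 4.22, 2.81, 4.003 and 2.92 FPKM), one of the members of lowest level, where few reads stand behind a value. The highest differences were those of *Mrpl3* (0.20), *Mrpl22* (0.18) and *Mrpl50* (0.17). *Mrpl50*, a mitochondria-specific protein, had an FPKM of 35.7, 22.3, 32.6 and 23.02. These differences were not tested, since each rests on single libraries.

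AA alone was compared with PBS between the tables, which may have been scaled separately, and these comparisons use the same 4 libraries as those of GSK-J4. In DMSO, the 66 genes had a median log2 ratio of AA over PBS of -0.02, compared with -0.05 over all 8843 genes. Of the members, 38 (57.6%) lay below 0 and 28 above, while 62.4% of all genes lay below 0. No member was at least 1.5-fold lower (background 2.22%) or higher (background 2.09%), and the values ran from -0.20 for *Mrpl51* to 0.24 for *Mrps12*. With GSK-J4 present, the median was -0.04, compared with -0.02 over 9180 genes. Below 0 were 42 members (63.6%), with 24 above, while 55.4% of all genes lay below 0. Again no member was at least 1.5-fold lower (background 2.54%) or higher (background 1.71%), and the values ran from -0.31 for *Mrpl57* to 0.18 for *Mrps28*. The highest mean AA ratios were those of *Mrpl52*, a protein of the central protuberance, at 0.14 and 0.07, *Mrps28* at 0.02 and 0.18, and *Mrpl2* at 0.06 and 0.11. The lowest were those of *Mrpl49* (-0.16 and -0.14), *Mrpl17* (-0.08 and -0.20) and *Mrpl51* (-0.20 and -0.08). The 66 genes were thus nearly level between PBS and AA, and under centring on the median of all genes or another scaling the median in DMSO turned slightly positive, to 0.06 at most.

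Related gene lists were placed beside the 66 genes. Mitoribosome subunits that carry other names lay inside the range of the members. Of these, *Ict1*, *Gadd45gip1*, *Chchd1*, *Ptcd3* and *Aurkaip1* have a value, and all 5 were below 0 in both comparisons, with medians of -0.68 without AA and -0.56 with AA. *Ict1*, a release factor built into the large subunit, had an FPKM of 24.99, 13.3, 19.3 and 11.7 and log2 ratios of -0.86 and -0.68. *Gadd45gip1* was at -0.69 and -0.74, *Ptcd3* at -0.56 and -0.56, and *Aurkaip1* at -0.47 and -0.47. The 11 mitochondrial translation factors had medians of -0.47 and -0.43, with 3 and 2 genes at least 1.5-fold lower (background 19.3% and 17.8%). *Gfm2*, a factor for ribosome recycling, had log2 ratios of -0.92 and -0.83, and *Tufm*, the elongation factor that delivers transfer RNAs, was at 80.9, 46.1, 81.7 and 42.8 FPKM with -0.80 and -0.92. *Mtfmt*, which formylates the initiator transfer RNA, was at -0.36 and 0.18, and the initiation factor *Mtif2* at -0.24 and -0.18.

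The 19 assembly factors of the mitoribosome had medians of -0.38 and -0.37, with 1 and 3 genes at least 1.5-fold lower, a smaller share than the 19.3% and 17.8% of all genes. Their lowest values were those of *Fastkd2* (-0.54 and -0.75) and *Rbfa* (-0.55 and -0.67), and their highest those of *Noa1* (-0.15 and -0.20) and *Rnmtl1* (0.08 and -0.22). The 16 mitochondrial aminoacyl-tRNA synthetases had medians of -0.36 and -0.26 and were split. *Yars2* (-0.95 and -0.95) was lowest, while *Nars2* (0.42 and -0.14) and *Lars2* (0.09 and 0.68) were highest. The 11 genes of mitochondrial transcription and genome maintenance had medians of -0.47 and -0.43, from *Ssbp1* (-0.94 and -0.999) and *Slirp* (-0.67 and -0.58) to *Polrmt* (-0.25 and -0.23) and *Mterf1a* (-0.21 and -0.02). Among 8 regulators of nuclear genes for mitochondria, with medians of -0.55 and -0.50, *Myc* had an FPKM of 15.3, 6.49, 12.8 and 5.004 and log2 ratios of -1.12 and -1.20, and the coactivator *Pprc1* was at -0.68 and -0.82. *Esrra* was above 0, at 0.25 and 0.20, and *Gabpb1* near 0, at -0.05 and -0.03. *Gabpa* and *Yy1*, whose motifs were counted above, had log2 ratios of -0.80 and -0.68 and of -0.65 and -0.50, and were added after their values were seen. The medians of these lists lay below 0 under all settings.

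**Figure D4:**
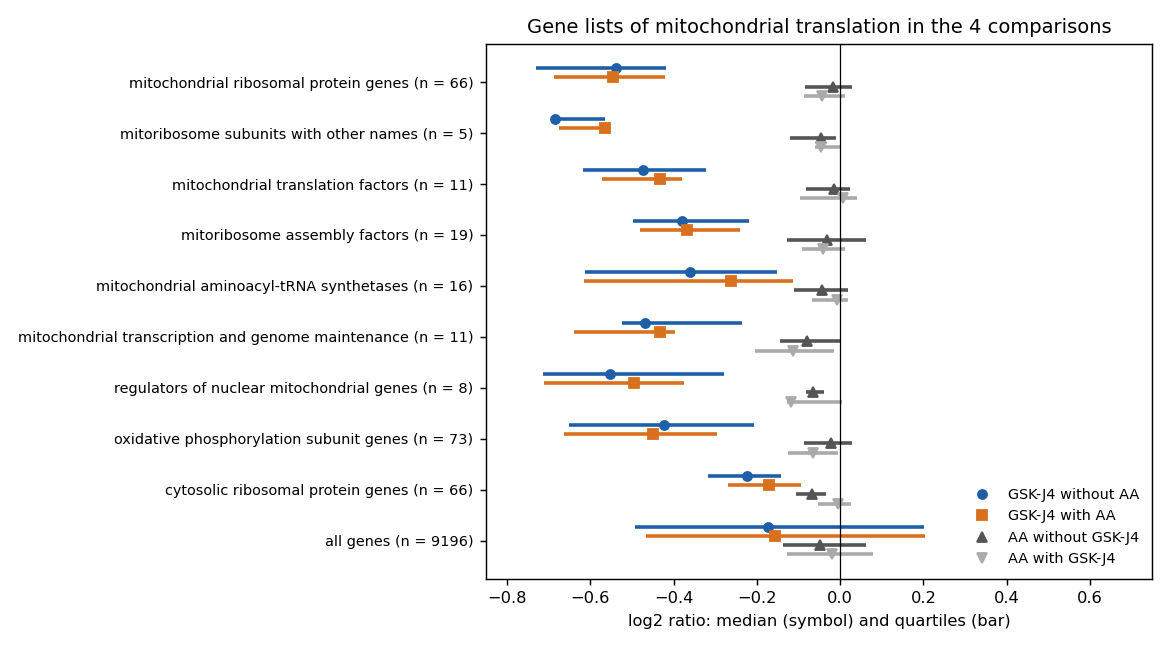
Median (symbol) and quartiles (bar) of the log2 ratio for the mitochondrial ribosomal protein genes, related lists and all genes in the 4 comparisons, with the number of genes in the GSK-J4 comparison without AA. The mitochondrial ribosomal protein genes have GSK-J4 medians of -0.54 and -0.55 and AA medians of -0.02 and -0.04.

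The cytosolic ribosome has a separate set of proteins, and its genes lay close to the median of all genes before genes of similar expression were set beside them. The 66 cytosolic ribosomal protein genes had medians of -0.22 without AA and -0.17 with AA, and 0 of them passed 1.5-fold in either direction. The median of the mitochondrial genes minus theirs was -0.31 without AA and -0.38 with AA. Of the mitochondrial genes, 32 without AA and 43 with AA lay below the lowest cytosolic gene, at -0.55 and -0.48. Many genes of other kinds lie that low. A member near each value, *Mrpl19* (-0.55 without AA) and *Mrps23* (-0.48 with AA), stood at percentile 21.5 and 24.3 of all genes. The cytosolic genes were also tightly grouped, with an SD of 0.14 and 0.13 across genes. The lowest cytosolic genes were *Rpl27* (-0.54 and -0.48) and *Rpl24* (-0.55 and -0.46), and the highest were *Rpl13a* (-0.02 and 0.03) and *Rps27* (0.09 and 0.11). The difference between both ribosomes kept its sign under all settings, between -0.53 and -0.25 without AA and between -0.60 and -0.31 with AA. The direction of the cytosolic genes themselves did not, with medians from -0.23 to 0.34 and from -0.18 to 0.36. The values of 0.34 and 0.36 are those against genes of similar expression, where 1 cytosolic gene without AA and 0 with AA lay below 0. The cytosolic genes also lie at far higher FPKM, and their reads can be shared with pseudogene copies. The 73 nuclear genes for oxidative phosphorylation subunits had medians of -0.42 and -0.45, with 24 genes at least 1.5-fold lower in each comparison (background 19.3% and 17.8%) and 3 and 2 at least 1.5-fold higher (background 11.6% and 10.1%). Their medians turned to 0.09 and 0.03 against genes of similar expression. The mitochondrial ribosomal protein genes differed from them by -0.11 and -0.10, over all settings by -0.28 to -0.08 and -0.26 to -0.06. *Atp5g1* (-0.93 and -0.86) and *Cox7c* (-0.84 and -0.91) were at the lower end. The isoform genes *Cox6b2* (0.99 and 1.14) and *Cox6a2* (1.496 and 1.92) were at the upper end. *Cox6a2* had an FPKM of only 0.0538, 1.97, 0.271 and 3.80, so its ratios rest on DMSO values near 0 and on the pseudocount.

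**Figure D5:**
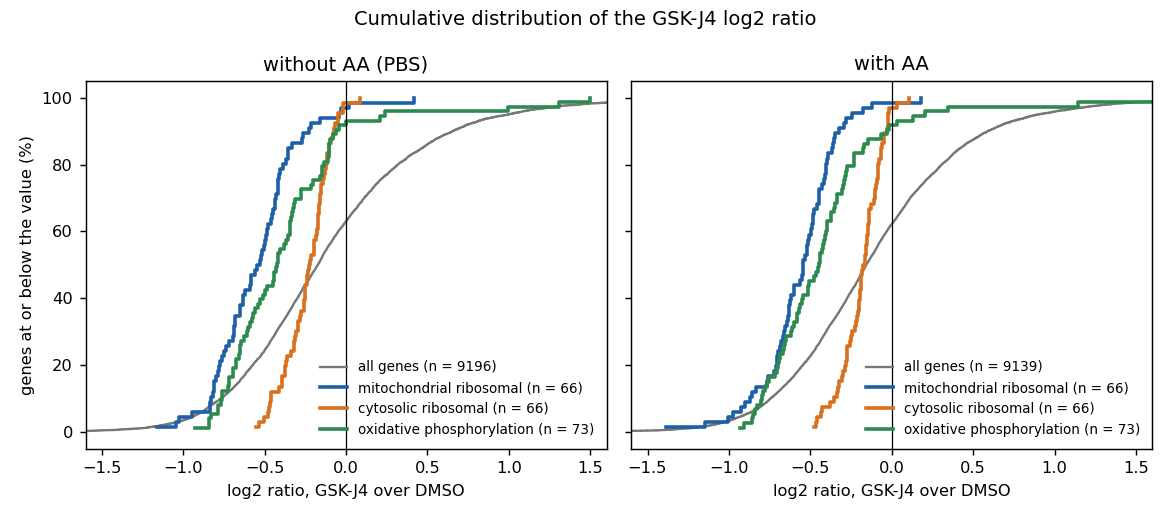
Cumulative share of genes at or below a given GSK-J4 log2 ratio without AA (left) and with AA (right), for all genes (grey), mitochondrial ribosomal (blue), cytosolic ribosomal (orange) and oxidative phosphorylation genes (green). The blue curve passes 50% at -0.54 and -0.55, the orange curve at -0.22 and -0.17 and the grey curve at -0.17 and -0.16.

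The 66 genes lie on 17 chromosomes, and some sit close to another gene. Of the 66, 19 have a protein-coding neighbour in head-to-head orientation, with start sites at most 1000 bases apart or overlapping by at most 250 bases in GENCODE M21. In each GSK-J4 comparison, 12 neighbours that are no member have a value. The sets of 12 are not identical, since *Lrrc46* has a value only without AA and *Pnpla7* only with AA. Neighbours, and the exon overlaps below, were counted for the members only, so no share of all genes stands beside these counts. This look at neighbours was added after the ratios had been seen. The neighbours had median log2 ratios of -0.25 without AA and -0.20 with AA, with 8 of 12 below 0 and 4 at least 1.5-fold lower in each. Of all genes, 63.05% and 62.2% lay below 0 and 19.3% and 17.8% were at least 1.5-fold lower, so the count below 0 was near the background. *Mrps12* and *Sars2*, which start 172 bases apart on chromosome 7, were both lower, with *Sars2* (seryl-tRNA synthetase) at 4.37, 2.55, 4.81 and 2.56 FPKM and log2 ratios of -0.60 and -0.71. *Mrpl40* and the histone chaperone gene *Hira* start 175 bases apart, and *Hira* had an FPKM of 27.3, 13.4, 25.2 and 12.1 and log2 ratios of -0.97 and -0.99. *Psma2*, a proteasome subunit gene 75 bases from *Mrpl32*, was at -0.93 and -0.94, lower than *Mrpl32* itself. In other pairs the directions differed, as for *Wdfy1* beside *Mrpl44*, at 0.35 and 0.35, and *Zfp189* beside *Mrpl50*, at 0.03 and 0.13. For promoter letters, the 21 genes with an ETS match had medians of -0.72 and -0.64, and the other genes of -0.49 and -0.51. The 8 genes with an NRF1 match had medians of -0.46 and -0.48, compared with -0.57 and -0.54 for the others, and the 11 with a YY1 match of -0.56 and -0.62, compared with -0.53 and -0.52. These splits were not tested. In 14 members exons overlap another protein-coding gene, in 9 of them over at least 10% of the exon bases, as for *Mrps25* (58.2% with *Nr2c2*) and *Mrpl19* (39.2% with *Gcfc2*), both on opposite strands, and their values are uncertain where strand was not used. *Mrps25* had log2 ratios of -0.41 and -0.37, and *Mrpl19* of -0.55 and -0.40.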

How the data were processed

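RNA-Seq of LF2 ESCs was performed under 4 conditions with 1 library each. The authors removed duplicates from single-end reads, aligned them with TopHat2 (build mm10, per the labels) and calculated FPKM with Cufflinks2 through Maser. Strand, depth and scaling between libraries are not given in the sources used here. The deposited FPKM columns are headed as log10 but hold linear values for 11033 coding sequence groups under 9936 gene names, in 1 table without and 1 with AA. The fold changes, test statistics, p-values and q-values that the authors deposited beside them were not used.

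FPKM was summed per gene, and 157 genes with a failed estimate were left out, which kept 9779. A pseudocount of 1, a minimum FPKM of 1 in either library and thresholds of 1.5-fold and 2-fold were used. No test was run, since there is 1 library per condition, and each list is described by counts and medians beside all genes. Members were named by rule: the 8 lowest and 8 highest by mean GSK-J4 ratio, the 4 highest and 2 lowest in level, the 3 at each end of the difference with and without AA and of the mean AA ratio, and the *Mrps18* paralogs. Of other lists, the 2 lowest and 2 highest were named. The members, lists and rule were chosen with earlier results of these data known. The cytosolic list leaves out kinases, pseudogenes and copies named with a final l. Alternatives were pseudocounts of 0.1 and 5, other filters (none, an FPKM of at least 5 in either or of at least 1 in both libraries), a 2-fold threshold, 3 scalings, a running median over expression, the highest coding sequence group only and failed estimates kept. The scripts were tested on simulated data. All 66 member loci overlap the GENCODE M21 gene of that name. The tools were pandas 2.3.3 and numpy 2.4.6 under Python 3.11.15, with matplotlib 3.10.9 for the figures and scipy 1.17.1 for rank correlations.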

Additional observations from a re-analysis of the deposited data

How the results depend on the processing

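The median of the 66 genes stayed below 0 in both GSK-J4 comparisons under all alternatives run, while its size and the counts past 1.5-fold depended on the scaling. Without and with AA, the median moved to -0.36 and -0.39 when ratios were centred on the median of all genes, to -0.27 and -0.30 with division by the upper quartile, to -0.17 and -0.22 with scaling to the same total, and to -0.19 and -0.23 when the running median over expression was subtracted. In the same order of settings, the genes at least 1.5-fold lower numbered 15 and 11, 4 and 9, 3 and 5, and 2 and 3 of 66, while 10.4% and 10.2%, 7.48% and 7.33%, 4.68% and 5.51%, and 7.79% and 8.71% of all genes were. The members' share was thus below that of all genes without AA under the last 3 of these settings, and with AA when the running median was subtracted. A threshold of 2-fold left 3 and 3, and a pseudocount of 5 left 17 with AA. The genes at least 1.5-fold higher became 1 without AA under all 4 of these scalings and trend settings, and 1 with AA when the running median was subtracted. In the AA comparisons the counts stayed at 0 and the medians within 0.1 of the values above. Of 60 GSK-J4 ratios of single named members, 42 kept 1 sign under all alternatives. No paired analysis was possible within a comparison because each condition has 1 library. A joint fit over both GSK-J4 pairs, with AA as a block, was not run. With no replicates and no known depth, small differences between members cannot be set against an error.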
